A study of Mus musculus with 6 samples.

Results

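*Ighv* segments are the variable (V) gene segments of the mouse immunoglobulin heavy chain locus on chromosome 12, and they fall into numbered families by sequence likeness. All rows of the expression table whose Entrez identifier belongs to a mouse symbol starting with *Ighv* were taken, which gave 67 of 13426 rows. They were grouped by V family, the number between *Ighv* and the first hyphen. The RefSeq annotation of GRCm38.p6 names 183 *Ighv* segments, so 116 of them had no row in the table. Of the 183, 63 are annotated as pseudogenes, and 0 of those were among the 67 rows. The rows covered 13 families. *Ighv1* had 33 rows of 92 annotated segments, *Ighv5* had 9 of 21, and *Ighv2*, *Ighv8* and *Ighv14* had 4 each. *Ighv3* had 3 rows, *Ighv6*, *Ighv9* and *Ighv10* had 2 each, and *Ighv4*, *Ighv12*, *Ighv13* and *Ighv15* had 1 each. Families *Ighv7*, *Ighv11* and *Ighv16* had 0 rows.

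The exon that encodes the variable part of the heavy chain is assembled in developing B cells by the RAG recombinase. A D segment is joined to a J segment first, and a V segment is then joined to the DJ unit. The V segments lie upstream of the D and J segments over a long stretch of chromosome, which is folded to bring distant segments near to the joining centre. The joined V(D)J exon is transcribed from the promoter of its V segment and spliced to the μ constant exons of *Ighm*. Unjoined V segments are also transcribed at a low level, on either strand, before joining, and these germline transcripts fall on the same annotated segments. Reads per segment cannot tell germline transcripts from transcripts of joined segments, nor fewer transcribing cells from less RNA in each cell.

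RNA-seq of early large pre-B (LPre-B) cells sorted from bone marrow of adult mice compared Upf1-cKO with Ctrl. Ctrl mice were Upf1 Flox/Flox, Mb1 +/+, and Upf1-cKO mice were Upf1 Flox/Flox, Mb1 Cre/+, with 3 libraries in each group, treated in the study as biological replicates. Both groups thus carried floxed *Upf1* alleles, and Ctrl mice carried no Cre. The Cre is expressed from the Mb1 (*Cd79a*) locus in B lineage cells, so that Upf1-cKO mice also had 1 intact *Cd79a* copy where Ctrl mice had 2. The gate for early LPre-B cells included large cells positive for B220 and CD43 and negative for CD2 and surface IgM.

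The segments that led the reads in Ctrl, and those that led them or were not lower in Upf1-cKO, are shown by the last 90 bases of their annotated transcripts, from GENCODE M21 (GRCm38), 5′ to 3′. Capitals mark the codon of the second conserved cysteine of the variable domain, which lies just before the point where a V segment is joined. The first 3 had most of their reads in Ctrl:
Ighv5-17: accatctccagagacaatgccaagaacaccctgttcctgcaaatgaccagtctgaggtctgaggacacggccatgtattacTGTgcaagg
Ighv9-3: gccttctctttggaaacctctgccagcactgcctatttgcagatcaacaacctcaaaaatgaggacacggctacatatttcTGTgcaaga
Ighv1-64: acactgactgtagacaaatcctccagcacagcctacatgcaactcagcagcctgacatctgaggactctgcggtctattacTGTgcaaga
*Ighv10-1* was among the segments with the most reads in both groups:
Ighv10-1: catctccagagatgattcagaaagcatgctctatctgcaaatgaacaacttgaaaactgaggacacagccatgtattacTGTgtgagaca
The last 4 had levels in Upf1-cKO that were not lower than in Ctrl:
Ighv5-2: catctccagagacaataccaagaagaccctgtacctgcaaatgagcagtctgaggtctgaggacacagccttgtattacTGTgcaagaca
Ighv8-2: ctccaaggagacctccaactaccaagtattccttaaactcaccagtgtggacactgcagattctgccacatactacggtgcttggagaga
Ighv1-23: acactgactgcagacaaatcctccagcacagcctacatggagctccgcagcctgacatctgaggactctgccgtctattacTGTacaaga
Ighv8-6: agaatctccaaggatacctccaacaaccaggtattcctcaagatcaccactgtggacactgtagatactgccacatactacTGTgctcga
The codon TGT after TAT, TAC, TTT or TTC was found within the last 20 bases in 65 of the 67 transcripts. It was not found there in *Ighv3-8* and in *Ighv8-2*, which therefore has no capitals. That says only that these letters are not in this window.

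Sequences within most families were close to each other, and this bears on the counts. Over the last 290 bases, segments of the same family were identical at a median of 85.86% of positions in 588 pairs, against 57.68% in 1623 pairs from different families. The exception was *Ighv3*, with a median of 64.69% over its 3 pairs. Its closest pair was 93.45% identical and its most distant 63.5%, so that a single member set the low median. *Ighv1-64*, called lower, and *Ighv1-23*, called higher, were 85.52% identical. *Ighv5-17* and *Ighv5-2* were 80.82% identical, and *Ighv8-2* and *Ighv8-6* were 83.05% identical. *Ighv10-1* and *Ighv10-3* differed least among the families with 2 rows, at 96.55% identity. At a window of 50 bases, a median of 20.86% of a segment's windows occurred exactly in another annotated gene, and the highest share was 92.51%, in *Ighv1-72*. *Ighv5-2* and *Ighv8-2* shared 0 windows of that length. In all, 8 of the 67 segments shared 0 such windows. Reads on the other segments can belong to a near copy, and family sums are less open to this than single segments.

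The 6 libraries held 9732498 to 11006834 recovered reads, and 13.75% to 23.77% of them fell on a single row without a symbol in the annotation. The targeted gene *Upf1* had levels of 260, 203 and 259 reads per 1e6 of effective library size in Ctrl libraries 1, 2 and 3, and of 308, 283 and 299.7 in those labelled Upf1-cKO. The difference was 0.31 on the log2 scale (SE 0.091, limma adjusted p = 0.0089), so that the gene-level count was not lower where the label says knockout. The count sums all exons and does not resolve the removed ones, so directions here are those of the cKO-labelled libraries against Ctrl. All 14 early B lineage markers had rows, of which limma called 3 lower and 6 higher, where 24.6% of all rows were called lower and 27.1% higher. *Vpreb1*, a surrogate light chain gene, was at 171 ± 7.92 in Ctrl and 226 ± 8.61 in Upf1-cKO, and *Cd79a*, whose locus carries the Cre, was at 221 ± 11.4 and 73.2 ± 1.85 (SD, n = 3). The 7 T cell markers had 0 rows. The 8 neutrophil and myeloid markers summed to 39.4 to 144 in Ctrl and to 371 to 510 in the cKO-labelled libraries, where 5 of 8 were called higher, beside the 27.1% of all rows. Their part in the results on *Ighv* segments was not tested.

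How the rows entered the table bears on each sum, share and position given here. Every row of the table exceeded a value of 0.5 in at least 3 libraries, and 57 of the 67 segments did so in all 3 libraries of Ctrl only, so that these rows are in the table through their Ctrl values. Another 3, *Ighv1-23*, *Ighv8-2* and *Ighv8-6*, did so in Upf1-cKO only, and 7 in both groups. The values below describe these rows only. Calls and p-values of rows above the filter in 1 group only, of sums over them, and of any other gene near 0 in a group are a description, since such rows were chosen through the group where they are high.

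The *Ighv* rows together held 1939, 2081 and 1779 reads in Ctrl libraries 1, 2 and 3, and 285, 284 and 292 reads in Upf1-cKO libraries 1, 2 and 3. As levels these were 206, 210.3 and 177 reads per 1e6 in Ctrl and 27.8, 25.6 and 24.6 in Upf1-cKO. The highest Upf1-cKO library was thus far below the lowest Ctrl library, and the 3 cKO-labelled libraries lay close together. The mean level was 198 ± 18.3 in Ctrl and 26.0 ± 1.64 in Upf1-cKO (SD, n = 3), a 7.60-fold difference and a log2 ratio of -2.93. By exact permutation, two-sided, over the 20 possible groupings of the libraries, p was 0.1, which is the smallest p that 3 libraries against 3 can give. Without the 2 segments that were called higher the log2 ratio was -3.15, a setting chosen after seeing the data.

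*Ighm*, the μ constant gene of the same locus, differed much less. It had 15517, 15103 and 13654 reads in Ctrl and 12460, 12776 and 14314 in Upf1-cKO. The level was 1510 ± 147 in Ctrl and 1191 ± 34.6 in Upf1-cKO (SD, n = 3), and the log2 fold change was -0.34 (SE 0.074, limma adjusted p = 0.0012). Per 1000 *Ighm* reads there were 125 to 138 *Ighv* reads in Ctrl libraries and 20.4 to 22.9 in Upf1-cKO libraries. On the log2 scale the ratio of *Ighv* to *Ighm* reads was lower by 2.58 in the cKO-labelled libraries (exact permutation p = 0.1, smallest possible), and this ratio does not depend on library size.

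All 13 family sums were called lower in Upf1-cKO by limma, and 0 were called higher, where 24.3% of all rows in the table with family sums were called lower and 27.2% higher. The rows of *Ighv3*, *Ighv4*, *Ighv9*, *Ighv12*, *Ighv13* and *Ighv15* were above the filter in Ctrl only, so the calls of these 6 families were favoured by the filter. So was that of *Ighv1*, in which 32 of 33 rows were above it in Ctrl only and 1 in Upf1-cKO only. *Ighv8* had 2 rows of each kind. *Ighv2*, *Ighv5* and *Ighv14* had 1 row above the filter in both groups and the rest in Ctrl only, which favoured their calls too. All rows of *Ighv6* and *Ighv10* were above it in both groups. The size of the difference varied widely between families. *Ighv9*, *Ighv3*, *Ighv12*, *Ighv4* and *Ighv13* had log2 fold changes between -6.57 and -4.79, *Ighv1*, *Ighv14*, *Ighv15* and *Ighv5* between -3.47 and -2.54, and *Ighv10*, *Ighv8*, *Ighv2* and *Ighv6* between -2.01 and -1.39. Single members decided part of this order. Without the member with the most Upf1-cKO reads, left out after seeing the data, the log2 ratio of mean levels went from -3.09 to -5.48 in *Ighv14* (*Ighv14-2*), from -1.83 to -2.66 in *Ighv8* (*Ighv8-2*), from -3.49 to -4.19 in *Ighv1* (*Ighv1-23*) and from -5.64 to -6.96 in *Ighv3* (*Ighv3-8*). It moved less in *Ighv5*, from -2.54 to -3.03, in *Ighv2*, from -1.42 to -1.79, and in *Ighv10*, from -2.03 to -2.12, and in *Ighv6* it moved the other way, from -1.39 to -1.21.

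*Ighv1*, the family with the most rows, had 954, 917 and 742 reads in Ctrl libraries 1, 2 and 3, and 88, 82 and 93 in Upf1-cKO libraries 1, 2 and 3. Its level was 89.2 ± 14.2 in Ctrl and 7.94 ± 0.603 in Upf1-cKO (SD, n = 3), with a log2 fold change of -3.47 (SE 0.131), given as a description since its rows were chosen as above. *Ighv5*, the family that lies nearest to the D and J segments together with *Ighv2*, had 247, 314 and 251 reads in Ctrl and 53, 41 and 64 in Upf1-cKO. Its level was 27.6 ± 3.61 in Ctrl and 4.76 ± 0.923 in Upf1-cKO, with a log2 fold change of -2.54 (SE 0.181). *Ighv2* had 48, 77 and 58 reads in Ctrl and 17, 30 and 31 in Upf1-cKO, and a log2 fold change of -1.41 (SE 0.282). The values of *Ighv5* and *Ighv2* are a description too, since all but 1 row of each was above the filter in Ctrl only. All 3 Upf1-cKO libraries were below all 3 Ctrl libraries in each of these families.

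At the other end, several families were nearly empty in Upf1-cKO. *Ighv9* had 75, 81 and 109 reads in Ctrl and 0, 1 and 1 in Upf1-cKO, a ratio of pooled levels of 149.7 with a 95% exact interval of 41.0 to 1243 that covers counting error only. *Ighv3* had 122, 114 and 90 reads in Ctrl and 5, 2 and 0 in Upf1-cKO, a ratio of 52.6 (95% interval 25.3 to 132). *Ighv12*, with the single row *Ighv12-3*, had 11, 30 and 18 reads in Ctrl and 0 in each Upf1-cKO library, and so was at least 22.2-fold lower when 3 reads over the group are taken as the floor. *Ighv4* had 35, 39 and 28 reads in Ctrl and 0, 2 and 1 in Upf1-cKO, and *Ighv13* had 24, 25 and 26 against 0, 1 and 1. *Ighv15* had 10, 16 and 25 reads in Ctrl and 2 in each Upf1-cKO library. At so few reads the intervals of *Ighv9*, *Ighv3*, *Ighv4* and *Ighv13* overlapped one another, and the order among these 4 is not resolved. The log2 fold change of *Ighv3*, -6.01, was -6.83 without Upf1-cKO library 1 and -4.99 without library 3, and that of *Ighv4*, -4.97, was -4.37 without Upf1-cKO library 1.

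*Ighv10*, *Ighv6* and, with all of its members, *Ighv8* differed less between the groups. *Ighv10* had 138, 144 and 140 reads in Ctrl and 37, 40 and 40 in Upf1-cKO, a ratio of 4.08 (95% interval 3.31 to 5.05). *Ighv6* had 68, 71 and 61 reads in Ctrl and 26, 35 and 25 in Upf1-cKO, a ratio of 2.63 (95% interval 2.03 to 3.42), the lowest of the 13 and close to that of *Ighv2*, 2.65. *Ighv8* had 75, 87 and 106 reads in Ctrl and 31, 32 and 21 in Upf1-cKO, a ratio of 3.61 (95% interval 2.81 to 4.66). With segments of a mean of at least 10 reads only, which leaves out *Ighv8-2* and *Ighv8-6*, the log2 fold change of *Ighv8* was -3.69 in place of -1.84. Even so, the lowest Ctrl library was above the highest Upf1-cKO library in each of the 3 families. Per kilobase of annotated segment, the mean family level spanned 4.76 (*Ighv2*) to 16.1 (*Ighv10*) in Ctrl and 0 (*Ighv12*) to 4.34 (*Ighv6*) in Upf1-cKO.

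**Figure D1:**
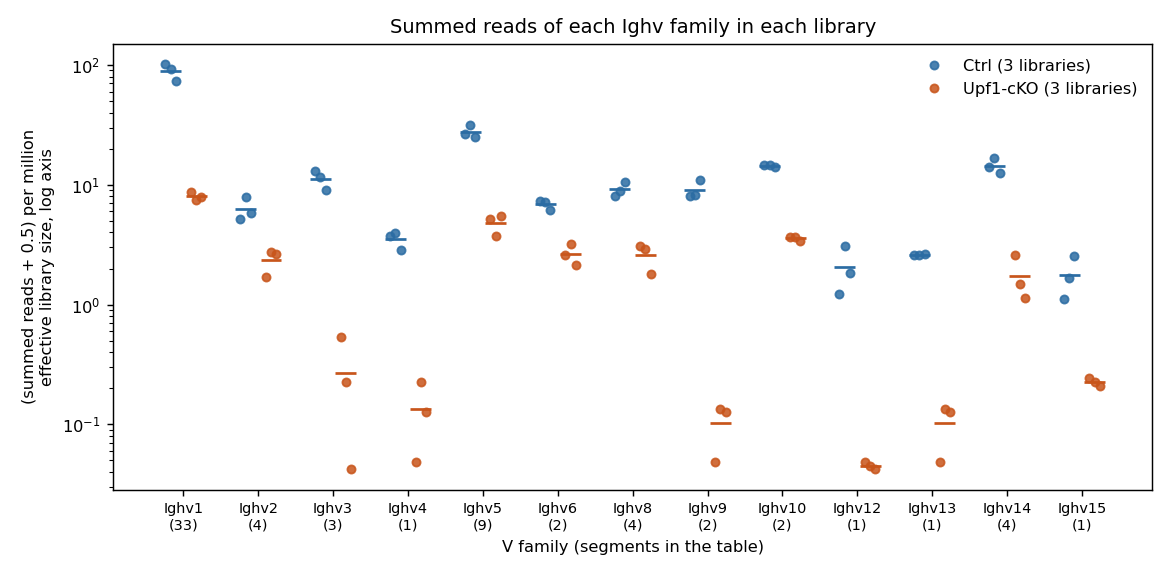
Summed reads of each V family per 1e6 of effective library size, with 0.5 read added, on a log axis. Points are single libraries, bars are group means, and numbers in brackets are the segments with rows. The Ctrl points lie above the Upf1-cKO points in all 13 families, with the narrowest gaps in *Ighv6* and *Ighv2* and the widest in *Ighv9*.

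Of the 67 segments, limma called 59 lower and 2 higher in Upf1-cKO and 6 in neither direction, where 24.6% of all rows were called lower and 27.1% higher. By level alone, all 3 Upf1-cKO libraries were below all 3 Ctrl libraries for 61 segments and above them for 2, where 27.9% and 30.9% of all rows had such separation. The median log2 fold change of the 67 was -4.06, beside 0.01 over all rows. These counts are a description of the rows that the deposited table holds. With values scaled by total reads, 14.1% of all rows were called lower and 37.8% higher, and with median centring 31.7% and 22.3%, while 56 and 60 of the segments were called lower. The 7 segments above the filter in both groups were *Ighv5-2*, *Ighv2-2*, *Ighv14-2*, *Ighv6-3*, *Ighv6-6*, *Ighv10-1* and *Ighv10-3*, of which limma called 6 lower and left *Ighv5-2* uncalled.

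Single segments held few reads. The median was 24 reads per segment and library in Ctrl and 2 in Upf1-cKO. A count of 0 was seen in 1 of 201 combinations of segment and library in Ctrl and in 76 of 201 in Upf1-cKO. In Upf1-cKO, 11 segments had 0 reads in all 3 libraries and 18 had 1 to 3 reads over the group. For the 11, the level was at least 9.04-fold to at least 54.99-fold lower than in Ctrl, with 3 reads over the group as the floor. The highest of these bounds belonged to *Ighv3-6*, with 58, 52 and 36 reads in Ctrl, and *Ighv1-19*, with 41, 57 and 37, was at least 50.85-fold lower. *Ighv1-22* had 31, 54 and 23 reads in Ctrl and was at least 40.68-fold lower.

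The segments with the most reads in Ctrl were nearly absent in Upf1-cKO, other than the pair from *Ighv10*. *Ighv9-3* (chr12:114140692-114141122) had 69, 74 and 88 reads in Ctrl, the most of any segment, and 0, 1 and 1 in Upf1-cKO. Its level was 7.85 ± 0.774 in Ctrl and 0.0582 ± 0.0505 in Upf1-cKO (SD, n = 3), with a log2 fold change of -6.39 (SE 0.540). *Ighv5-17* (chr12:113859149-113859442), whose sequence is given above, had 59, 74 and 65 reads in Ctrl and 0, 2 and 1 in Upf1-cKO, with a log2 fold change of -5.92 (SE 0.580), which was -5.32 without Upf1-cKO library 1. *Ighv1-64* (chr12:115507587-115507977) had 76, 60 and 67 reads in Ctrl and 2, 2 and 1 in Upf1-cKO, with a log2 fold change of -5.18 (SE 0.451). All 3 are in the table through their Ctrl values, so no test is given for them. In each of these 3 segments the lowest Ctrl level was over 10 times the highest Upf1-cKO level.

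Further members of *Ighv1* were of the same kind. *Ighv1-26* had 55, 75 and 66 reads in Ctrl and 1, 7 and 3 in Upf1-cKO, and *Ighv1-82* had 63, 63 and 66 against 2, 5 and 2. *Ighv1-9* had 68, 61 and 41 reads in Ctrl and 4, 0 and 0 in Upf1-cKO. *Ighv1-76* had 58, 58 and 46 against 0, 0 and 1, and *Ighv1-81* had 56, 42 and 43 against 1, 0 and 0. Within the 33 rows of *Ighv1* the log2 fold change ran from -6.66 to 2.43 with a median of -4.24, and 31 were called lower. In *Ighv8*, *Ighv8-8* had 37, 66 and 69 reads in Ctrl and 0, 2 and 0 in Upf1-cKO, and in *Ighv14*, *Ighv14-3* had 35, 42 and 48 against 0, 3 and 0. *Ighv3-8*, which had 36, 42 and 29 reads in Ctrl, had 5 reads in Upf1-cKO library 1 and 0 in the other two.

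*Ighv1-23* (chr12:114764450-114764743) went the other way. It had 7, 5 and 4 reads in Ctrl and 30, 33 and 40 in Upf1-cKO, the most reads of any segment in that group. Its level was 0.549 ± 0.177 in Ctrl and 3.09 ± 0.244 in Upf1-cKO (SD, n = 3), with a log2 fold change of 2.43 (SE 0.410, limma adjusted p = 0.00012). All 3 cKO-labelled libraries were above all 3 Ctrl libraries. The row is in the table through its Upf1-cKO values only, so its call and this separation are a description. This segment alone made up 0.61% of the pooled *Ighv1* reads in Ctrl and 39.2% in Upf1-cKO. In the RefSeq annotation *Ighv1-23* lies within *Gm40899*, a long non-coding RNA gene (chr12:114764408-114779554) that has no row of its own in the table, and it is the only one of the 67 that overlaps a gene other than the enclosing *Igh* entry. Reads of the segment and of *Gm40899* cannot be told apart in the counts.

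*Ighv8-6* (chr12:115165777-115166077) was the other segment called higher, and like *Ighv8-2* it is in the table through its Upf1-cKO values only, so that its call too is a description. It had 0, 1 and 2 reads in Ctrl and 6, 8 and 9 in Upf1-cKO, with a log2 fold change of 2.54 (SE 0.862, limma adjusted p = 0.021). The groups did not overlap, but the counts are small, and without Upf1-cKO library 1, 2 or 3 the adjusted p was 0.052, 0.073 or 0.084, while without Ctrl library 1 the log2 fold change was 1.91. *Ighv8-2* (chr12:114462290-114462589) had 3, 1 and 11 reads in Ctrl and 18, 13 and 8 in Upf1-cKO. Its groups overlapped, and its log2 fold change of 1.54 did not pass the test (SE 0.711, limma adjusted p = 0.081). Without Ctrl library 3, the highest in that group, it was 2.29 with an adjusted p of 0.014, and without Ctrl library 2 it was 0.84 with 0.30. Scaled to the sum of the *Igh* rows it was 1.85 with an adjusted p of 0.044.

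*Ighv5-2* (chr12:113578504-113578990), of all rows the V segment nearest to the J segments, had the same number of reads in each Ctrl library. It had 14, 14 and 14 reads in Ctrl and 15, 15 and 22 in Upf1-cKO, and the groups overlapped in level. Its log2 fold change was 0.10 (SE 0.374, limma adjusted p = 0.84), with a ratio of pooled levels, Ctrl over Upf1-cKO, of 0.913 and a 95% counting interval of 0.593 to 1.40. For *Ighv5-17* of the same family the ratio was 74.6 (95% counting interval 25.2 to 365). That row is in the table through its Ctrl values only, so the contrast with *Ighv5-2* is a description and was not tested. *Ighv5-2* held 5.17% of the pooled *Ighv5* reads in Ctrl and 32.9% in Upf1-cKO. Median centring of each library turned its sign to -0.012, so that no direction is given for it.

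Between these ends stood segments whose levels differed by a few fold. *Ighv10-1* (chr12:114479007-114479451) had 64, 87 and 75 reads in Ctrl and 20, 22 and 24 in Upf1-cKO, with a log2 fold change of -1.92 (SE 0.245, limma adjusted p = 7.2e-06). *Ighv10-3* had 74, 57 and 65 reads in Ctrl and 17, 18 and 16 in Upf1-cKO, with a log2 fold change of -2.08 (SE 0.272, limma adjusted p = 9.5e-06). They were the only 2 segments among the 10 with the most reads in Ctrl and also among the 10 with the most in Upf1-cKO, and each had tight counts in Upf1-cKO. *Ighv14-2* had 57, 58 and 31 reads in Ctrl and 25, 11 and 12 in Upf1-cKO, and it held 87.3% of the *Ighv14* reads in Upf1-cKO against 34.5% in Ctrl. *Ighv6-3* had 33, 45 and 39 reads in Ctrl and 15, 22 and 8 in Upf1-cKO, and *Ighv6-6* had 35, 26 and 22 against 11, 13 and 17. *Ighv2-2* had 20, 42 and 33 reads in Ctrl and 9, 22 and 18 in Upf1-cKO. The lowest Ctrl level of *Ighv2-2*, 2.13, was just above its highest Upf1-cKO level, 1.98. The log2 fold changes of *Ighv6-6* and *Ighv2-2* were -1.16 (limma adjusted p = 0.012) and -1.14 (limma adjusted p = 0.020). The call of *Ighv6-6* was lost without Ctrl library 1 (adjusted p = 0.061), and that of *Ighv2-2* without Ctrl library 2 or 3 or Upf1-cKO library 1 (adjusted p = 0.10, 0.052 and 0.092). Scaled to the sum of the *Igh* rows, neither was called (adjusted p = 0.057 and 0.099), and scaled to total reads *Ighv2-2* was not (0.055).

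Besides *Ighv5-2* and *Ighv8-2*, 4 segments were not called. *Ighv5-6* had 47, 58 and 27 reads in Ctrl and 28, 2 and 18 in Upf1-cKO, and the groups overlapped (log2 fold change -2.13, SE 0.945, limma adjusted p = 0.11). It passed without Upf1-cKO library 1 or 2, with log2 fold changes of -2.87 and -1.06 and adjusted p of 0.012 and 0.040, and with all libraries by edgeR, voom and log2(value + 1), with 0.044, 0.0093 and 0.023. *Ighv2-3* had 7, 17 and 8 reads in Ctrl and 3, 5 and 7 in Upf1-cKO, and *Ighv2-6* had 7, 8 and 6 against 5, 2 and 5. *Ighv1-58* had 17, 8 and 6 reads in Ctrl and 2, 4 and 5 in Upf1-cKO (limma adjusted p = 0.058), and it was called lower by edgeR (0.035), with log2(value + 1) (0.045), with median centring (0.041) and without Ctrl library 3 (0.043). Their pooled levels were 2.41, 1.98 and 3.19 times higher in Ctrl, with 95% counting intervals of 1.27 to 4.79, 0.929 to 4.41 and 1.56 to 7.02.

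**Figure D2:**
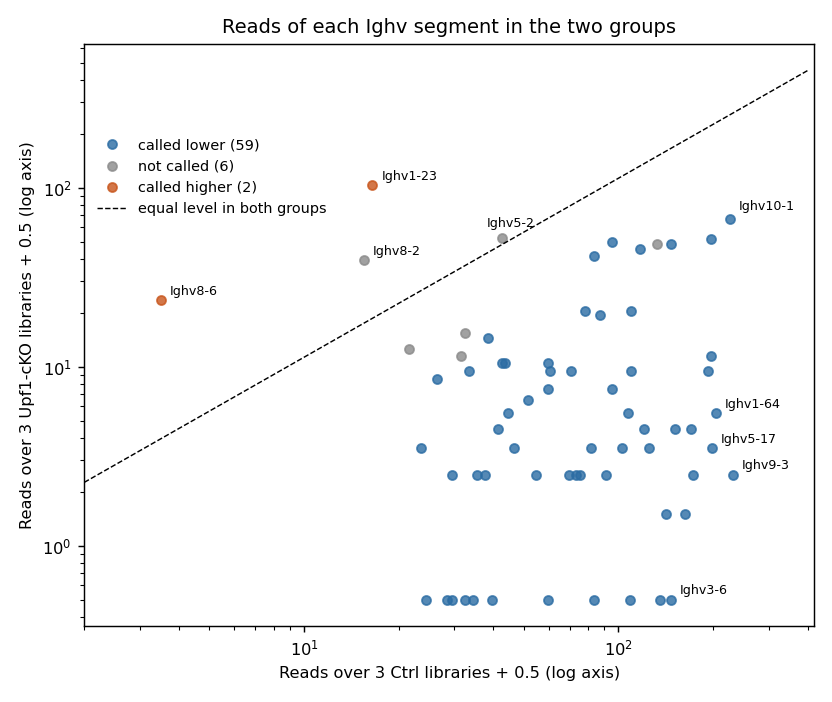
Reads of each of the 67 segments summed over the 3 libraries of a group, with 0.5 read added, Ctrl on the horizontal and Upf1-cKO on the vertical log axis. The dashed line marks equal levels in both groups, and colours give the limma call. Most points lie far below the line, a band of segments with 41 to 66 reads in Upf1-cKO lies nearer to it, and *Ighv1-23*, *Ighv8-6*, *Ighv8-2* and *Ighv5-2* lie on or above it.

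The *Ighv* reads of Upf1-cKO were shared out over the rows less evenly. The 10 segments with the most reads held 33.6% of the pooled 5799 *Ighv* reads in Ctrl and 63.0% of the pooled 861 in Upf1-cKO, and both sets shared 2 segments. The leading segment of a library held 3.92% to 4.95% of its *Ighv* reads in Ctrl and 10.5% to 13.7% in Upf1-cKO. Across the 67 segments, Spearman's rho between pooled Ctrl and pooled Upf1-cKO reads was 0.033, a description over segments that share libraries and, in part, sequence. Of the 67 rows 10 were above the filter in all 3 Upf1-cKO libraries, a selection that bears on the shares of the leading segments and on this correlation, and nothing is read from either.

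Family shares of the *Ighv* reads also differed between the groups. *Ighv1* made up 49.2%, 44.1% and 41.7% of the *Ighv* reads in Ctrl libraries 1, 2 and 3, and 30.9%, 28.9% and 31.9% in Upf1-cKO. *Ighv6* made up 3.51%, 3.41% and 3.43% in Ctrl and 9.12%, 12.3% and 8.56% in Upf1-cKO. *Ighv10* made up 7.12%, 6.92% and 7.87% in Ctrl and 12.98%, 14.1% and 13.7% in Upf1-cKO. In these 3 families the groups did not overlap, with *Ighv1* lower and the other two higher in share. *Ighv2* had a mean share of 3.15% in Ctrl and 9.05% in Upf1-cKO and *Ighv8* had 4.67% and 9.78%, both without overlap. *Ighv9* had a mean share of 4.63% in Ctrl and 0.23% in Upf1-cKO, and *Ighv3* had 5.61% and 0.82%, with 1.75%, 0.70% and 0% in the 3 Upf1-cKO libraries. Its log2 ratio to the other families, -3.16, was -3.93 without Upf1-cKO library 1 and -2.17 without library 3.

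In all, the shares of 10 of the 13 families did not overlap between the groups. *Ighv5*, at 13.98% ± 1.18 in Ctrl and 18.3% ± 3.75 in Upf1-cKO, *Ighv14* and *Ighv15* did overlap. Each of the 10 had an exact two-sided permutation p of 0.1 on the log2 ratio of the family to all other *Ighv* reads, the smallest the design allows, and 0.13 after adjustment over the 13 families. A share sums with the others to the whole, so that a rise of one family's share goes with a fall of others and does not mean a rise of its level. The higher share of *Ighv8* rested on *Ighv8-2* and *Ighv8-6*, which have few Ctrl reads. With segments of a mean of at least 10 reads only, which leaves them out, the log2 ratio of *Ighv8* to the other families turned from 1.16 to -0.70.

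**Figure D3:**
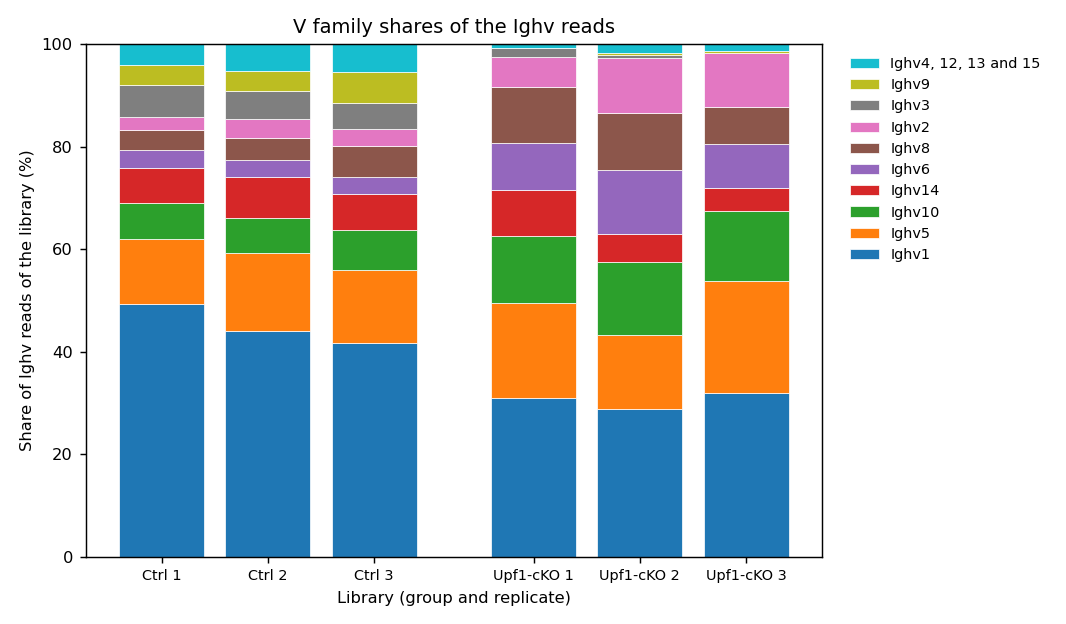
Share of each V family in the *Ighv* reads of each library, in percent, with 3 Ctrl bars on the left and 3 Upf1-cKO bars on the right. The *Ighv1* block is shorter in all 3 Upf1-cKO bars, at 28.9% to 31.9%, than in the Ctrl bars, at 41.7% to 49.2%, and the blocks of *Ighv6*, *Ighv10* and *Ighv2* are taller.

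The position of the segments was compared next, since joining of proximal and distal V segments depends on different features of the locus. All 67 segments lie on the minus strand, from 149 kb (*Ighv5-2*) to 2570 kb (*Ighv1-85*) from *Ighj1*. The farthest of them, *Ighv1-85*, had 29, 23 and 17 reads in Ctrl and 2, 0 and 0 in Upf1-cKO. *Ighv2* and *Ighv5* were set as proximal families, at 149 to 429 kb, and *Ighv1* and *Ighv8* as distal families, at 1032 to 2570 kb. The proximal families had 295, 391 and 309 reads in Ctrl and 70, 71 and 95 in Upf1-cKO. The distal families had 1029, 1004 and 848 reads in Ctrl and 119, 114 and 114 in Upf1-cKO. Both ends were lower in Upf1-cKO, and the log2 ratio of proximal to distal reads went from -1.54 ± 0.232 in Ctrl to -0.57 ± 0.268 in Upf1-cKO (SD, n = 3), a difference of 0.97 (exact two-sided permutation p = 0.1, smallest possible). The 3 Upf1-cKO ratios, from -0.76 to -0.26, were all above the Ctrl ratios, from -1.80 to -1.36. Without the 2 segments called higher, a setting chosen after seeing the data, the difference was 1.62. Both are distal with most of their reads in Upf1-cKO, so leaving them out had to widen it, and nothing is read from this.

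In stretches of 250 kb, a width chosen after seeing the data, the ratio of Ctrl to Upf1-cKO levels did not follow distance in 1 direction. The nearest stretch, with 6 segments, had 132, 172 and 123 reads in Ctrl and 59, 49 and 75 in Upf1-cKO, a ratio of 2.64 (95% counting interval 2.21 to 3.15). The next 3 stretches had ratios of 12.1, 15.7 and 10.95. From 1000 to 1250 kb, where *Ighv8-2*, *Ighv10-1* and *Ighv10-3* lie, the ratio was 4.403 (95% interval 3.83 to 5.08), and from 1250 to 1500 kb, which holds *Ighv1-23*, it was 5.94. The farthest 2 stretches had ratios of 24.4 (95% interval 17.1 to 35.96) and 26.8 (95% interval 14.7 to 54.4). Spearman's rho between distance and log2 fold change over the 67 segments was -0.16, a description over segments that share libraries and neighbours.

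**Figure D4:**
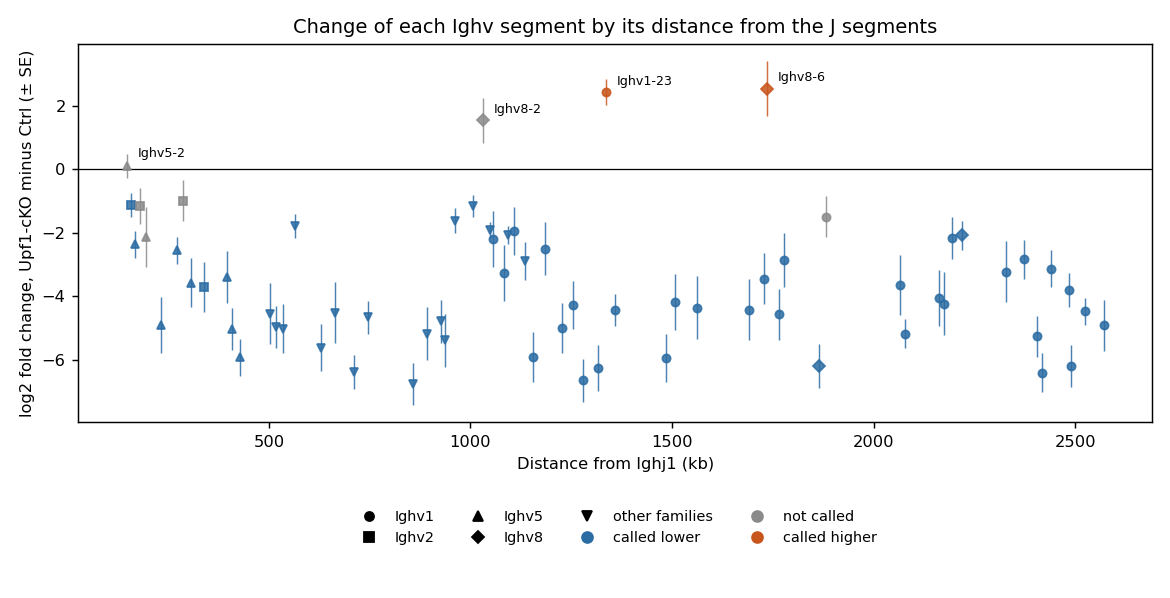
Log2 fold change with its SE for each segment against its distance from *Ighj1* in kilobases. Marker shapes give the family and colours the limma call. Most segments within 250 kb of *Ighj1* and several near 1000 kb changed least among those below 0, and *Ighv8-2*, *Ighv1-23* and *Ighv8-6* lie above 0 in the middle of the locus.

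**Figure D5:**
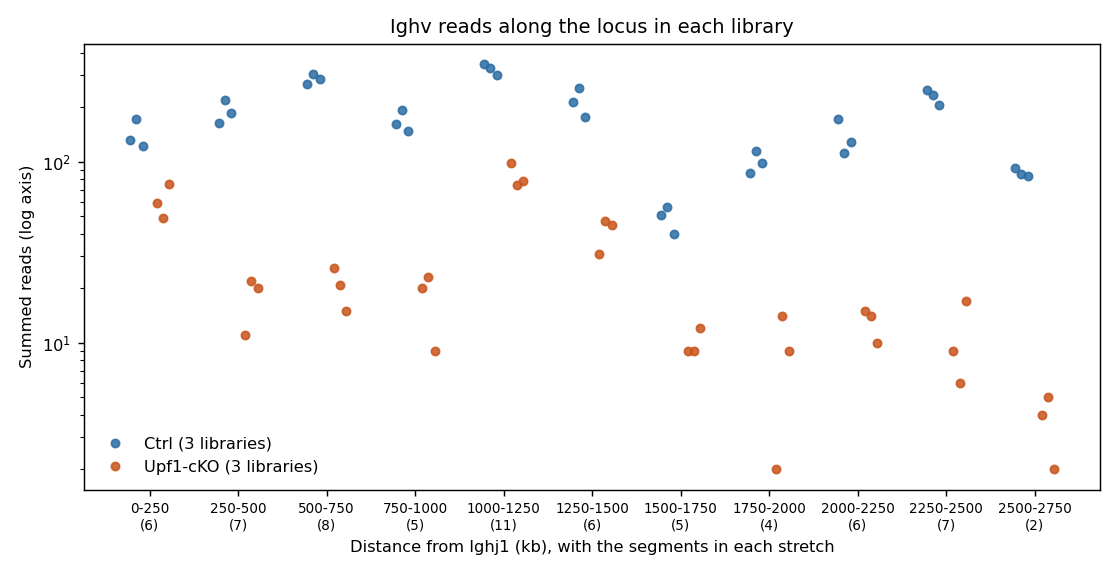
Summed *Ighv* reads of each library, on a log axis, in stretches of 250 kb from *Ighj1*, with the number of segments in brackets. The Ctrl points lie above the Upf1-cKO points in each stretch, and the gap is smallest from 0 to 250 kb and large from 2250 kb on.

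Other segments of the *Igh* locus differed in direction among themselves. The 4 *Ighj* rows, the J segments, summed to 301, 162 and 311 reads in Ctrl and 176, 280 and 261 in Upf1-cKO, and the groups overlapped (log2 ratio of mean levels -0.30, exact permutation p = 0.4). Within them *Ighj1* was higher, with 21, 3 and 15 reads in Ctrl and 39, 88 and 87 in Upf1-cKO (log2 fold change 2.50, SE 0.651). *Ighj3* and *Ighj4* were lower, by log2 fold changes of -1.20 and -0.67 (limma adjusted p = 0.014 and 0.012), and *Ighj2* had 50 pooled reads in each group. The groups overlapped in the level of *Ighj4*, at 13.3 in Ctrl library 2 and 14.2 in Upf1-cKO library 2. *Ighd1-1*, the D segment with a row, had 1, 1 and 0 reads in Ctrl and 6, 14 and 15 in Upf1-cKO (log2 fold change 3.27, SE 0.830). *Ighd1-1* and *Ighj1* were above the filter in all 3 libraries of Upf1-cKO only, so their higher levels are a description. The 9 V segments of the κ light chain locus (*Igkv*) with rows summed to 236, 203 and 237 reads in Ctrl and 71, 105 and 73 in Upf1-cKO. Of these 9, 3 were called lower, 1 higher and 5 in neither direction, beside 24.6% lower and 27.1% higher of all rows.

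Constant genes used after class switching were examined because antibody-secreting cells carry many V transcripts. *Igha* had 9, 179 and 21 reads in Ctrl and 0 in each Upf1-cKO library, and *Jchain*, which links antibody subunits in plasma cells, had 9, 40 and 9 reads against 2, 0 and 2. Ctrl library 2 thus stood out for both. Without that library the log2 ratio of the summed *Ighv* level was -2.88. *Ighg2b* went the other way, with 72, 120 and 39 reads in Ctrl and 1783, 1510 and 1880 in Upf1-cKO. So did *Ighg1*, with 0 reads in each Ctrl library and 9, 19 and 14 in Upf1-cKO. Of the 10 plasma cell markers 8 had rows, of which 4 were called lower and 2 higher, beside 24.6% and 27.1% of all rows. Their summed level was 175 to 236 in Ctrl and 267 to 328 in Upf1-cKO, and without *Ighg2b*, left out after seeing the data, it was 172 to 224 and 131 to 155.

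Most markers of the stage at which the pre-B cell receptor signals were also lower. Of 8 such genes 6 were called lower and 1 higher, beside 24.6% and 27.1% of all rows, and their summed level was 2031 to 2242 in Ctrl and 828 to 862 in Upf1-cKO. *Il2ra*, a surface marker of later pre-B cells, was at 13.3 ± 0.920 in Ctrl and 1.63 ± 0.0786 in Upf1-cKO (SD, n = 3), and *Ikzf3*, an Ikaros family factor of that stage, was at 318 ± 19.3 and 34.4 ± 2.91. The gene called higher was *Rag1* (log2 fold change 1.56), which is also among the early B lineage markers, and *Irf8* was not called (-0.08). *Cd22*, called lower, is in this list and among the mature B cell markers. The 8 mature B cell markers summed to 257 to 266 in Ctrl and 70.2 to 81.6 in Upf1-cKO, mostly through *Cd22*. Of these 8 only *Cd22* and *Ccr7* were called lower, 3 were called higher (*Cr2*, *Cd40* and *Ighd*, at log2 fold changes of 0.93, 2.61 and 0.51), and their median log2 fold change was 0.37. Of 7 erythroid markers 3 had rows and 0 were called by limma. The part of stage and of other cells in the lower *Ighv* level was not tested.

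All 29 genes listed for V(D)J joining and for the folding of the locus had rows, and 13 were called lower and 8 higher, beside 24.6% and 27.1% of all rows, with a median log2 fold change of -0.21 beside 0.01 over all rows. The recombinase genes were higher in Upf1-cKO, in contrast to the V segments. *Rag1*, which encodes the catalytic subunit, had levels of 86.9, 71.0 and 56.2 in Ctrl and 218, 192 and 213 in Upf1-cKO. *Rag2*, its partner, was at 29.0 ± 1.14 in Ctrl and 66.2 ± 5.04 in Upf1-cKO, and *Dntt*, the polymerase that adds bases at the joins, was at 170 ± 30.9 and 527 ± 49.1 (SD, n = 3). The limma adjusted p of the 3 genes was 1.3e-06, 5.0e-08 and 8.6e-07, and the groups did not overlap.

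The 3 called genes of that list with the largest changes were *Polm*, *Wapl* and *Paxx*. *Polm*, a polymerase that fills gaps in end joining, had 413, 302 and 319 reads in Ctrl and 28, 11 and 40 in Upf1-cKO (log2 fold change -4.03, SE 0.430, limma adjusted p = 0.00013). *Wapl*, which releases cohesin from chromosomes and so limits the folding of the locus, had 1550, 2012 and 2238 reads in Ctrl and 297, 348 and 329 in Upf1-cKO (log2 fold change -2.73, SE 0.105, limma adjusted p = 1.1e-11). *Paxx*, a factor of non-homologous end joining, was higher, with 112, 95 and 98 reads in Ctrl and 354, 360 and 449 in Upf1-cKO (log2 fold change 1.75, SE 0.135, limma adjusted p = 2.9e-08). Among the listed transcription and architectural factors that act on the *Igh* locus, *Ikzf1*, *Rad21*, *Ctcf* and *Tcf3* were called lower, at log2 fold changes of -1.28, -0.67, -0.40 and -0.40. *Stat5b* and *Stat5a*, transcription factors of the same list, were called higher, at log2 fold changes of 0.67 and 0.37. *Pax5*, *Ebf1*, *Yy1*, *Smc1a*, *Smc3* and *Ezh2* were not called, at log2 fold changes of -0.12, 0.03, 0.04, -0.23, -0.21 and -0.17.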

How the data were processed

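RNA-seq libraries were made from sorted early LPre-B cells of 3 Ctrl and 3 Upf1-cKO mice by rRNA depletion and a directional kit. Per the submitters' processing notes and the study's methods, the authors trimmed reads with cutadapt 4.0, aligned them to mm10 with HISAT2 (single end, unstranded), counted them per gene with featureCounts 2.0.1 and normalised them with limma 3.48.0. The counting annotation, the strand setting of the counting, the treatment of multi-mapping reads and the read length are not given in the sources used here, so sense and antisense reads of a segment cannot be told apart. Per the file headers and values, the deposited signal is a normalised count per gene, (reads + 0.5) divided by the effective library size per 1e6 reads. Whole reads were recovered from 100% of values within a tolerance of 0.05 reads, in libraries of 9732498 to 11006834 reads and effective sizes of 9.41 to 11.9 units of 1e6 reads. Every row exceeds 0.5 in at least 3 libraries.

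Levels are recovered reads per 1e6 of effective size. The main test was limma 3.58.1 (trend and robust, R 4.3.3) on log2 of the deposited value, which already holds a half-read offset, with Benjamini-Hochberg adjustment over all 13426 rows and a threshold of 0.05. For families, the 67 rows were replaced by 13 sums and refitted over 13372 rows. Sums, ratios and shares were tested by exact two-sided permutation over 20 assignments. Ratios of pooled levels carry exact 95% intervals for counting error only. On the recovered reads, edgeR 4.0.16, DESeq2 1.42.0, limma with voom weights, another pseudocount, a minimum of 10 mean reads, other scalings and leaving out each library were alternatives. Scripts were tested on simulated data. The 40 segments to be named were set by rule (the 3 highest of each family, those called higher or not called, the 10 largest changes, the nearest and the farthest), and 29 of them are described. Symbols and coordinates are from RefSeq GRCm38.p6, where 13008 rows matched. The segments and gene lists were chosen with earlier results of these data known. A share of pseudogene reads was planned and had no value, since 0 pseudogenes had rows. 0 columns were left unmapped.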

Additional observations from a re-analysis of the deposited data

How the results depend on the processing

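Of 906 alternative values computed for the counts, sums, shares and named genes, 873 kept the direction and side of the threshold of the main value, where a count of calls within 1.5 times of the main count was taken as the same. The number of families called lower was 13 in each alternative other than a mean of at least 10 reads, where it was 11 since *Ighv12* and *Ighv15* had no row, and the summed *Ighv* log2 ratio lay between -3.15 and -2.61 over all of its alternatives. With segments of a mean of at least 10 reads only, 38 were called lower and 1 higher, since fewer rows were tested. edgeR called 60 lower and 2 higher, and DESeq2 called 57 and 2. With 1 library left out, 55 to 59 segments were called lower and 1 to 3 higher. The second higher call, *Ighv8-6*, was lost without any 1 of the Upf1-cKO libraries and *Ighv8-2* was added without Ctrl library 3 and when scaled to the sum of the *Igh* rows. With log2(value + 1) the log2 fold change of *Ighv9* was -3.18 in place of -6.57, so fitted folds of segments near 0 reads depend on the offset. *Ighv5-2* reversed to -0.012 with median centring and to -0.027 without Upf1-cKO library 3, within -0.027 to 0.19 over the libraries left out. The share of *Ighv14* reversed to 0.015 (log2 ratio to other families) without the segments called higher, and its values with 1 library left out ran from -0.53 to 0.014. That of *Ighv15* ran from -0.30 to 0.41, and that of *Ighv8* reversed to -0.70 with a mean of at least 10 reads, which leaves out *Ighv8-2* and *Ighv8-6*. Over all rows the median log2 fold change was 0.01, beside 0.22 when scaled to total reads and -0.10 when median centred, shifts that are small beside the family changes.

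Same-numbered libraries had correlations of their deviations from the group means of 0.129, -0.071 and -0.093, where other pairs ran from -0.19 to 0.262. No pairing was seen, but 3 libraries per group cannot exclude it. The column headers number same-numbered libraries next to each other, and whether they were handled together is not given. With the replicate number as a block, 59 segments were called lower and 2 higher, the summed log2 ratio was -2.92, and the calls of the families, of the 29 segments described, of the V(D)J joining gene counts and of *Polm*, *Wapl* and *Paxx* did not change. For other genes the values with the block are not given here. Depth limits single segments most, since the median was 2 reads per segment and library in Upf1-cKO.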
